A study of Homo sapiens with 14 samples.

Results

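PHOX2A, HAND2, GATA2, GATA3, ISL1, TBX2, SOX11 and KLF7 are transcription factors of the adrenergic state of neuroblastoma, a childhood tumour of the sympathetic nervous system. They were selected by symbol, and each of the 8 was found once among the 17810 genes counted in cells induced to express EGFP or OmoMYC and once among the 19143 genes counted in parental cells given DMSO or dTAG47. All 8 passed the filter on low counts in both experiments. Each had at least 822 counts in every library, so none was tested only because it was high in a single group. The cells are CHP-134, an established human neuroblastoma line in which MYCN, the gene for N-MYC, is amplified. OmoMYC is a mutated MYC dimerization domain that blocks the action of MYC proteins, EGFP is a fluorescent protein used as its control, and dTAG47 is a small molecule that brings proteins carrying an engineered tag to a ubiquitin ligase for degradation. The question for these factors is how their RNA differs when N-MYC is inhibited, and whether the degrader compound alone moves it.

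Adrenergic factors bind each other's enhancers as well as their own and so keep one another expressed. PHOX2A is a homeodomain protein that drives noradrenergic differentiation, HAND2 is a basic helix-loop-helix protein of the sympathetic lineage, and GATA2 and GATA3 are zinc finger proteins that act in sympathetic neurons as well as in blood cells. ISL1 is a LIM homeodomain protein needed for sympathetic neurons to mature, TBX2 is a T-box repressor, SOX11 is an HMG-box factor of immature neurons, and KLF7 is a Kruppel-like zinc finger factor involved in the growth of axons.

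The EGFP and OmoMYC cells were made by separate lentiviral transductions of CHP-134, selected in G418 with no cloning step described, grown in serum approved for tetracycline systems, and given 1 µg/ml doxycycline for 3 days to switch on the transgene (3 libraries each). Parental cells carried no transgene and no tagged protein, were grown in ordinary serum, and were treated with 500 nM dTAG47 or with matched DMSO for 18 h (4 libraries each). The replicates are described as biological replicates, and since each transgene is in 1 engineered line, the transgene and the line that carries it cannot be told apart. EGFP libraries hold 28060817 to 32001315 counts, OmoMYC libraries 29288048 to 38358128, DMSO libraries 40861430 to 51199800 and dTAG47 libraries 43019725 to 53451641. Levels are given as CPM, the count of a gene relative to the library's total after TMM scaling, with that total set to 1000000. OmoMYC is derived from MYC, and the reads assigned to MYC averaged 0.61 ± 0.0684 CPM over the EGFP and 522 ± 7.85 CPM over the OmoMYC libraries (SD), which matches the labels. Of 17227 gene identifiers shared by the 2 experiments, 80 have at most 3 counts in every EGFP and OmoMYC library and at least 1000 in every parental library, so the experiments were counted differently and their levels are only set side by side here.

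The neuronal label of the cells was checked against markers. The summed level of 10 gene entries for sympathetic neuron and chromaffin markers was 1260 to 1310 CPM in EGFP, 1450 to 1480 in OmoMYC, 1720 to 1790 in DMSO and 1750 to 1800 in dTAG47 libraries. The sums of the 2 experiments are not comparable, since the entries are not all the same. An entry of SYP has at most 1 count in engineered and 5055 to 6653 in parental libraries. With OmoMYC 8 of 9 tested entries were higher, while ELAVL4, the most abundant, was at 593 CPM with EGFP and 529 with OmoMYC. TH and DBH, enzymes of noradrenaline synthesis, were near the limit of detection in both experiments, with 5 to 10 counts of TH in EGFP, 20 to 32 in OmoMYC, 12 to 16 in DMSO and 9 to 14 in dTAG47 libraries. T cell markers, a lineage that also uses GATA3, summed to at most 0.516 CPM in engineered and 3.42 CPM in parental libraries, and CD3D was at 0 in every parental library. Endothelial and blood progenitor markers, lineages that also use GATA2, summed to 0.31 to 0.394 CPM with EGFP, 1.87 to 2.93 CPM with OmoMYC and at most 0.805 CPM in parental cells. Schwann lineage markers summed to 7.29 to 14.6 CPM over all libraries. Fibroblast markers were at 153 to 177 CPM with EGFP, 156 to 173 with OmoMYC, 100 to 107 with DMSO and 103 to 110 with dTAG47. The members are thus measured in cells with abundant neuronal RNA and little RNA of the blood lineages, and the part that the higher neuronal marker sum with OmoMYC has in the values below was not tested. In bulk RNA, fewer cells of a type and less RNA per cell cannot be told apart.

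The 8 genes lie on 7 chromosomes (GENCODE annotation on GRCh37, the sequence of hg19). PHOX2A is at chr11:71950121-71956708 on the minus strand, HAND2 at chr4:174446120-174451380 on the minus strand, GATA2 at chr3:128198270-128212044 on the minus strand and GATA3 at chr10:8087341-8117161 on the plus strand. ISL1 is at chr5:50679282-50690564 and TBX2 at chr17:59477204-59486827, both on the plus strand. Chromosome 2 holds SOX11 at chr2:5832516-5841517 on the plus strand and KLF7 at chr2:207938861-208038580 on the minus strand. The exons of HAND2 share 867 bases, 24.1% of their length, with the antisense RNA HAND2-AS1. For the other members, overlap with another gene is at most 3.98% of the exons, the value for PHOX2A and INPPL1 on the opposite strand. The strand setting of the counting is not given in the sources used here, and none of 8 antisense or overlapping RNAs named after or beside the members is listed under its own symbol, so reads of such RNAs could be among those of HAND2.

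Promoters were taken from RefSeq (GRCh38.p14) for the 6 members that matched, 15 start sites in all, and the 250 bases before each start were located by an exact match in GRCh37. They were searched on both strands for CACGTG, the E-box bound by MYC and its partner MAX, and for GATA forms, the letters GATA with A or T before them and A or G after them. The E-box is in 2 of the 15 windows, one of GATA3 and one of KLF7, and in 6.31% of 34788 RefSeq promoters of the same length. GATA forms are in 2 windows, those of HAND2 and ISL1, against 22.4% of all promoters. The 4 windows with a match are shown with the motif in capitals, since they place letters of the N-MYC site and of the GATA site in genes described below. They are ISL1 (chr5:50679032-50679281, plus strand), HAND2 (chr4:174451381-174451630, minus strand), the third of 6 starts of GATA3 (chr10:8092949-8093198, plus strand) and the fourth of 4 starts of KLF7 (chr2:207998862-207999111, minus strand), all on GRCh37 and written along the strand of the gene.
ISL1: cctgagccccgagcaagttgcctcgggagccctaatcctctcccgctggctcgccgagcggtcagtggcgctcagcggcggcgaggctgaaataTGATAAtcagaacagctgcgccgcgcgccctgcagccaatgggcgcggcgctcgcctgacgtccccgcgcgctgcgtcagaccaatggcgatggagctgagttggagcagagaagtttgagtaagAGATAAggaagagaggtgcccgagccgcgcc
HAND2: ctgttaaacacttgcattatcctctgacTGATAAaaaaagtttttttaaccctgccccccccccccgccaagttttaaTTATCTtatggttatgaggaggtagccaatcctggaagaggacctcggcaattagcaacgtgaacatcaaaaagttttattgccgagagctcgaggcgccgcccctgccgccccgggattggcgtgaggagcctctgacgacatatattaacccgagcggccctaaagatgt
GATA3: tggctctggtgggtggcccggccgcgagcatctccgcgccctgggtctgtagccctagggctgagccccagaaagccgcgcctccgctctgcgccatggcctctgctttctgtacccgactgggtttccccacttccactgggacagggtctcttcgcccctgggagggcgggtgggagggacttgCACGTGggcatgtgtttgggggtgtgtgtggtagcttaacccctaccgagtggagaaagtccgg
KLF7: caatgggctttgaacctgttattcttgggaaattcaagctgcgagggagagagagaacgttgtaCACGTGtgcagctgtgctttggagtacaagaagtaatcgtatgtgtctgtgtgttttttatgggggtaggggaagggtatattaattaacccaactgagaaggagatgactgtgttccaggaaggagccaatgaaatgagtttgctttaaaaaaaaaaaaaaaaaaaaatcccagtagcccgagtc
The GATA forms begin 156 and 31 bases before the ISL1 start and 222 and 172 bases before the HAND2 start, and the second of HAND2 is on the other strand. The E-box begins 64 bases before the GATA3 start and 186 bases before the KLF7 start, and both are internal starts of the annotated genes. A match of letters is not a measured binding site. All 250 bases of the GATA3 window are also annotated as exon of GATA3-AS1. Parts of the other windows are annotated as exons of ISL1-DT, HAND2-AS1 and a KLF7 transcript.

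With OmoMYC, TBX2, ISL1 and GATA2 rose, KLF7 fell, and PHOX2A, HAND2, GATA3 and SOX11 did not pass the test. TBX2 changed most, by 1.99-fold, and ISL1 by 1.68-fold. Thus 4 of 8 factors were called at an FDR below 0.05 by edgeR's quasi-likelihood test, where 53% of the 13803 tested genes were called, so the share is close to that of all genes and is not a result about these factors. In one direction, 3 of 8 rose against 27.3% of all genes, and 1 of 8 fell against 25.7%. The libraries of EGFP and OmoMYC did not overlap for 4 of 8 factors and for 62.3% of all genes. The median log2 fold change of the 8 was 0.09, beside 0.01 for all tested genes, and the median size regardless of sign was 0.21 beside 0.31.

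**Figure D1:**
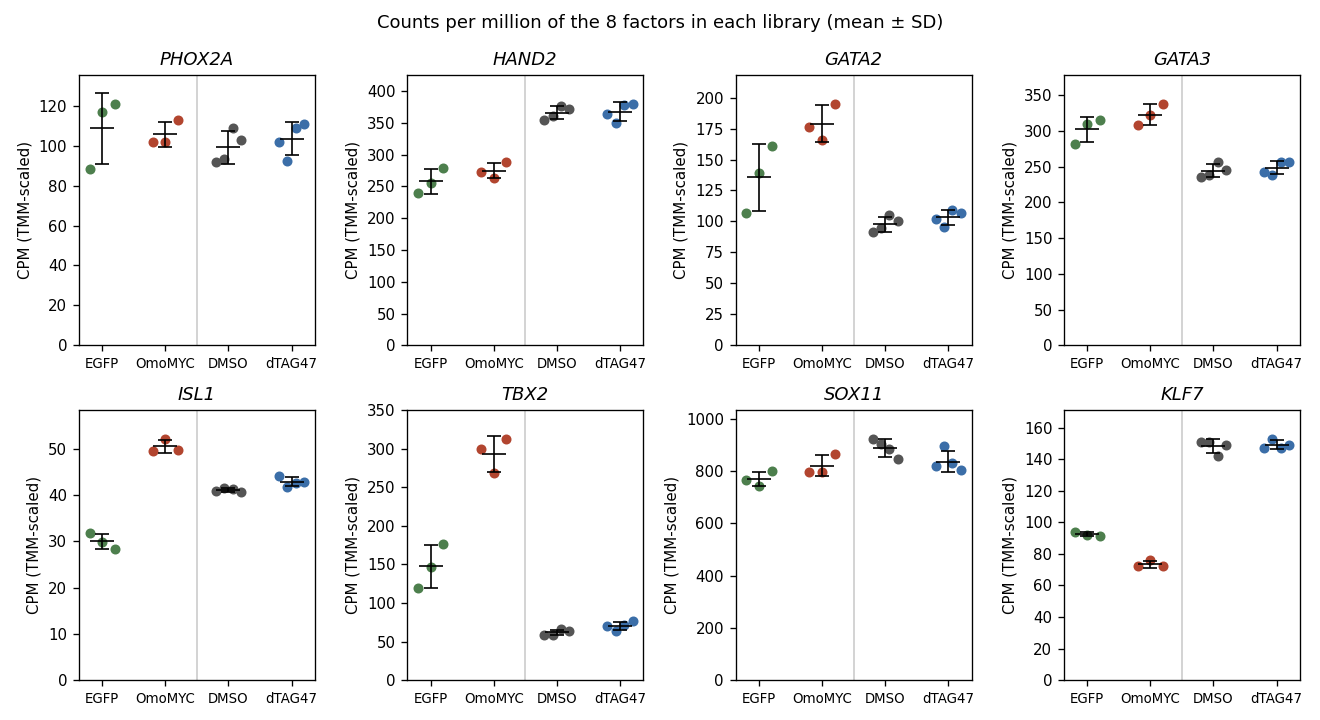
CPM (TMM-scaled, linear axis from 0) of each factor in each library, with points for libraries and bars for the mean and SD of EGFP and OmoMYC (n = 3 each) and DMSO and dTAG47 (n = 4 each). The OmoMYC points lie above the EGFP points for GATA2, ISL1 and TBX2 and below them for KLF7, while the DMSO and dTAG47 points are separate only for ISL1, and the grey line divides the 2 experiments, which were scaled separately.

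TBX2, the T-box repressor, was at 120, 146 and 176 CPM in EGFP replicates 1 to 3 and at 299, 268 and 313 CPM in OmoMYC replicates 1 to 3. Every OmoMYC library was above every EGFP library, although the EGFP libraries themselves differed widely. The means were 147 ± 28.1 and 293 ± 23.1 CPM (SD, n = 3 each). The log2 fold change was 0.99 (standard error 0.122, 95% interval 0.72 to 1.26, adjusted p = 9.75e-05, edgeR's quasi-likelihood test), larger in size than that of 91.5% of tested genes. It ranged from 0.85 to 1.11 with each library left out in turn and was called each time.

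ISL1, the LIM homeodomain factor, was at 31.7, 29.9 and 28.3 CPM in the EGFP libraries and at 49.5, 52.2 and 49.8 CPM in the OmoMYC libraries. Replicates were close together in both groups and the groups were far apart. The means were 30.0 ± 1.7 and 50.5 ± 1.53 CPM (SD, n = 3 each). On the log2 scale ISL1 was higher by 0.75 (standard error 0.0771, 95% interval 0.58 to 0.92, adjusted p = 3.16e-05, edgeR), and stayed between 0.68 and 0.78, called in each case, with each library left out.

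GATA2 was at 107, 139 and 161 CPM with EGFP and at 176, 166 and 195 CPM with OmoMYC. The groups did not overlap, but the gap between the highest EGFP and the lowest OmoMYC library was small beside the range within EGFP. The log2 fold change was 0.40 (standard error 0.128, 95% interval 0.12 to 0.68, adjusted p = 0.0228, edgeR). It was not called without EGFP replicate 2 (0.40, adjusted p = 0.0654), without OmoMYC replicate 1 (0.41, adjusted p = 0.0529) or without OmoMYC replicate 3 (0.30, adjusted p = 0.131), and over all libraries left out it ranged from 0.24 to 0.51. GATA3, the other GATA factor, was at 282, 310 and 315 CPM with EGFP and 308, 323 and 338 CPM with OmoMYC. These libraries overlapped, and the log2 fold change of GATA3 was 0.09 (95% interval -0.06 to 0.24, adjusted p = 0.268, edgeR). The difference between the changes of GATA2 and GATA3 was not tested. Of 7 endothelial and blood progenitor markers 6 were listed and 3 tested. KDR (0 to 3 counts with EGFP, 35 to 53 with OmoMYC) and TIE1 (0 to 1 and 14 to 24 counts) were higher with OmoMYC, far below GATA2. Both passed the filter only through the OmoMYC libraries, so a rise was the only change that could be seen. CDH5 was not called. PECAM1 (0 counts with EGFP, 0 to 1 with OmoMYC), TEK (0 to 1 and 0 to 2) and CD34 (0 to 2 and 2 to 7) were too low to test. The part of these markers in the result for GATA2 was not tested.

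KLF7 was the member that fell. It was at 93.8, 92.1 and 91.4 CPM in EGFP libraries and at 72.2, 76.0 and 72.2 CPM in OmoMYC libraries, and the spread within each group was small beside the gap. The log2 fold change was -0.33 (standard error 0.0662, 95% interval -0.48 to -0.18, adjusted p = 0.00199, edgeR), a fold of 0.795. Without each library in turn it lay between -0.39 and -0.32 and was called each time.

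The homeodomain factor PHOX2A was at 88.4, 117 and 121 CPM in EGFP libraries and at 102, 102 and 113 CPM in OmoMYC libraries. EGFP replicate 1 was below all 3 OmoMYC libraries, and the other two EGFP libraries were above them. The log2 fold change was -0.05 (95% interval -0.29 to 0.20, adjusted p = 0.751, edgeR), and without EGFP replicate 1 it was -0.19 and called (adjusted p = 0.0167). Leaving out EGFP replicate 3 instead gave 0.005. The call of PHOX2A thus changed with the first of these libraries and its sign with the other.

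HAND2 was at 240, 255 and 279 CPM with EGFP and at 273, 264 and 288 CPM with OmoMYC, a log2 fold change of 0.09 (95% interval -0.07 to 0.25, adjusted p = 0.304, edgeR). SOX11, the member with the most counts, was at 767, 744 and 799 CPM with EGFP and at 796, 798 and 866 CPM with OmoMYC, a log2 fold change of 0.09 (95% interval -0.05 to 0.23, adjusted p = 0.241, edgeR). In both genes the libraries of the 2 groups overlapped. The upper ends of the intervals limit a rise of HAND2, GATA3 or SOX11 to a log2 fold change of 0.25, 0.24 and 0.23, which does not show that these genes did not differ.

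**Figure D2:**
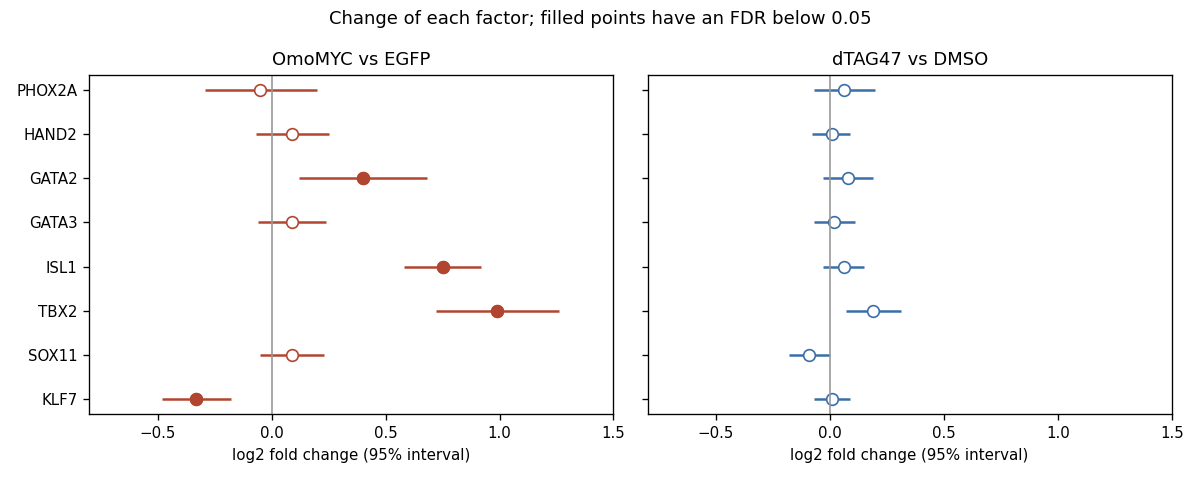
Log2 fold change of each factor (x axis, 0 marked) with its 95% interval from edgeR, for OmoMYC against EGFP (3 libraries each) on the left and dTAG47 against DMSO (4 each) on the right, where filled points have an FDR below 0.05. GATA2, ISL1, TBX2 and KLF7 are filled on the left, and no point is filled on the right, where the largest value is 0.19 for TBX2.

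The EGFP libraries differed among themselves more than the OmoMYC libraries for some members. The coefficient of variation was 20.2% with EGFP and 8.16% with OmoMYC for GATA2, 19.0% and 7.86% for TBX2, and 16.3% and 5.89% for PHOX2A. KLF7 varied by 1.34% and 3.04% and ISL1 by 5.67% and 3.03%. EGFP replicate 1 was the lowest EGFP library for PHOX2A, HAND2, GATA2, GATA3 and TBX2 and the highest for ISL1 and KLF7. Over all tested genes it was lowest in 41.8% and highest in 42.7%, so it was at one end for most genes. EGFP replicates 1 and 3 were the least alike of all replicate pairs, at 42.1 for the chi-square of their counts over its degrees of freedom, a ratio near 1 where reads are only sampled.

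**Figure D3:**
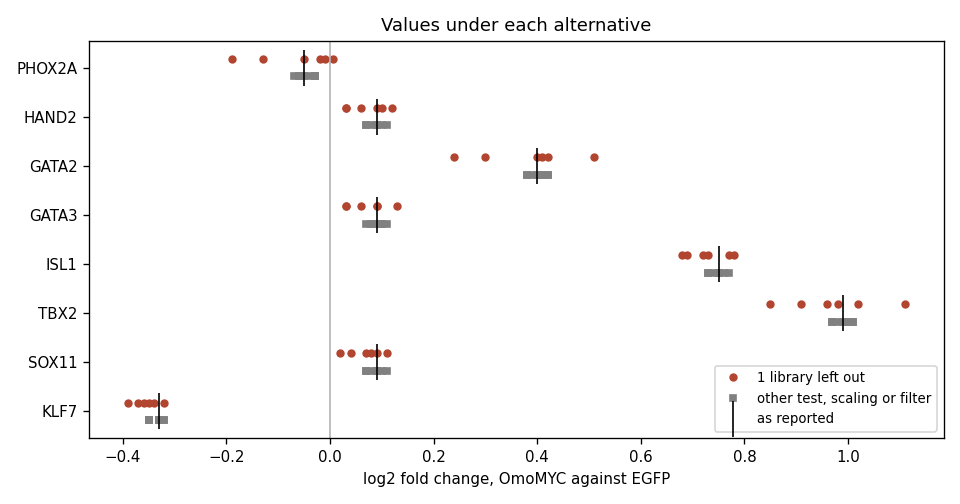
Log2 fold change of each factor, OmoMYC against EGFP (x axis), as reported (black line), with 1 library left out (red points) and with another test, scaling or filter (grey squares). Red points spread more than grey squares, from 0.24 to 0.51 for GATA2 and from -0.19 to 0.005 for PHOX2A. PHOX2A has points on both sides of 0. The other factors stay on their side of 0, including HAND2, GATA3 and SOX11, which were not called.

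Of 19 other factors and cofactors linked to the adrenergic state, 18 were tested, 3 rose and 6 fell with OmoMYC. PBX3, a homeodomain factor of the PBX family, rose from 40.6 ± 2.76 to 92.6 ± 2.29 CPM (log2 fold change 1.19, adjusted p = 1.01e-06, edgeR), and ZNF536, a neuronal zinc finger protein, rose by 1.06. DACH1 rose by 0.27 and was not called without OmoMYC replicate 2. Among those that fell were LMO3, a LIM-only cofactor (-0.96), MEIS2, a homeodomain factor (-0.69), HAND1, the paralog of HAND2 (-0.49), INSM1, a neuroendocrine zinc finger factor (-0.44) and MYCN (-0.28). SOX4, the close relative of SOX11, was not called (0.11, adjusted p = 0.187). The median over the 18 was -0.13, beside 0.01 for all genes, and 9 called of 18 is close to the 53% of all genes.

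Proteins that bind DNA together with the members were examined next, and 15 of 18 such partners were tested. PBX2 was not among them, as its entries in this experiment had at most 7 counts. Another entry of PBX2, counted only in parental cells, was at 71.2 CPM with DMSO, so it cannot be called unexpressed here. ZFPM1, the cofactor FOG1 of GATA proteins, rose from 11.2 ± 2.53 to 21.8 ± 2.97 CPM (log2 fold change 0.97, adjusted p = 6.52e-04, edgeR), while ZFPM2 (FOG2) was at 0.05 and not called. LMO4 (0.32) and SSBP2 (0.33), parts of complexes built on LDB1, rose, and LDB1 itself had a value of 0.22 with an adjusted p of 0.0595. SSBP3, related to SSBP2 and far more abundant (mean over both groups 253 against 21.9 CPM), was not called (0.03, adjusted p = 0.779, edgeR). LDB2, related to LDB1 but close to the limit of detection, was not called either (0.13, adjusted p = 0.737, edgeR). Of the E proteins that pair with HAND2, TCF4 rose by 0.49 and TCF12 fell by 0.36 on the log2 scale, and TCF3 was not called (-0.17, adjusted p = 0.154). Of the MEIS homeodomain cofactors, MEIS3 (0.78) rose and MEIS1 (-0.31) fell. SSBP2 was not called without EGFP replicate 2 or without OmoMYC replicate 1. In all 6 rose and 2 fell, with a median of 0.13 beside 0.01 for all genes, and 8 called of 15 is close to the 53% of all genes.

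Of 11 relatives of the members grouped here as paralogs, without HAND1 and SOX4 named above, 8 were listed and 5 passed the filter. TBX3, the nearest relative of TBX2, rose from 56.8 ± 6.01 to 211 ± 6.02 CPM (log2 fold change 1.89, standard error 0.0851, adjusted p = 6.52e-08, edgeR), so both T-box repressors were higher with OmoMYC. SOX12, related to SOX11, rose by 0.38 but was not called without EGFP replicate 2 or OmoMYC replicate 3. KLF6, related to KLF7, fell by 0.29 on the log2 scale, and TWIST1, a helix-loop-helix protein that can pair with HAND2, fell by 0.42 on the same scale. ISL2, with 4 to 14 counts in EGFP and 12 to 27 counts in OmoMYC libraries, was not called (0.82, adjusted p = 0.124). GATA4 and GATA6 had at most 5 counts in any library of this experiment.

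Genes of noradrenergic and neuroendocrine identity, several of them targets of PHOX2, HAND2, GATA or ISL1 proteins, changed in both directions, with 19 of 20 tested, 7 higher, 3 lower and a median log2 fold change of 0.33 beside 0.01 for all genes. The 10 called of 19 are at the 53% of all genes, so the count is not a result about this list. GAP43, a growth cone protein (0.89), SCG2, a secretogranin (0.65), STMN2, a neuronal tubulin regulator (0.47), and the granins CHGA (0.37) and CHGB (0.35) rose. The groups overlapped for CHGA, which was not called with upper quartile factors or in 5 of 6 fits with a library left out, all but that without EGFP replicate 3, and CHGB was not called without OmoMYC replicate 3. TH and DBH rose from very low levels, TH from 5 to 10 counts per library to 20 to 32 and DBH from 5 to 16 counts to 33 to 43. Both passed the filter because of the OmoMYC libraries, so their place among the 7 higher is no support for a rise of the list. With at least 10 counts required in every library neither was tested, and 8 genes were called. GCH1, which makes the cofactor of TH, fell from 46.7 ± 5.18 to 26.6 ± 1.67 CPM (log2 fold change -0.81, adjusted p = 8.36e-05, edgeR). ALK, a receptor kinase mutated in some neuroblastomas, fell with a log2 fold change of -0.72, and CHRNA3, a nicotinic receptor subunit, with -0.26. The count called lay between 8 and 14 with each library left out.

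**Figure D4:**
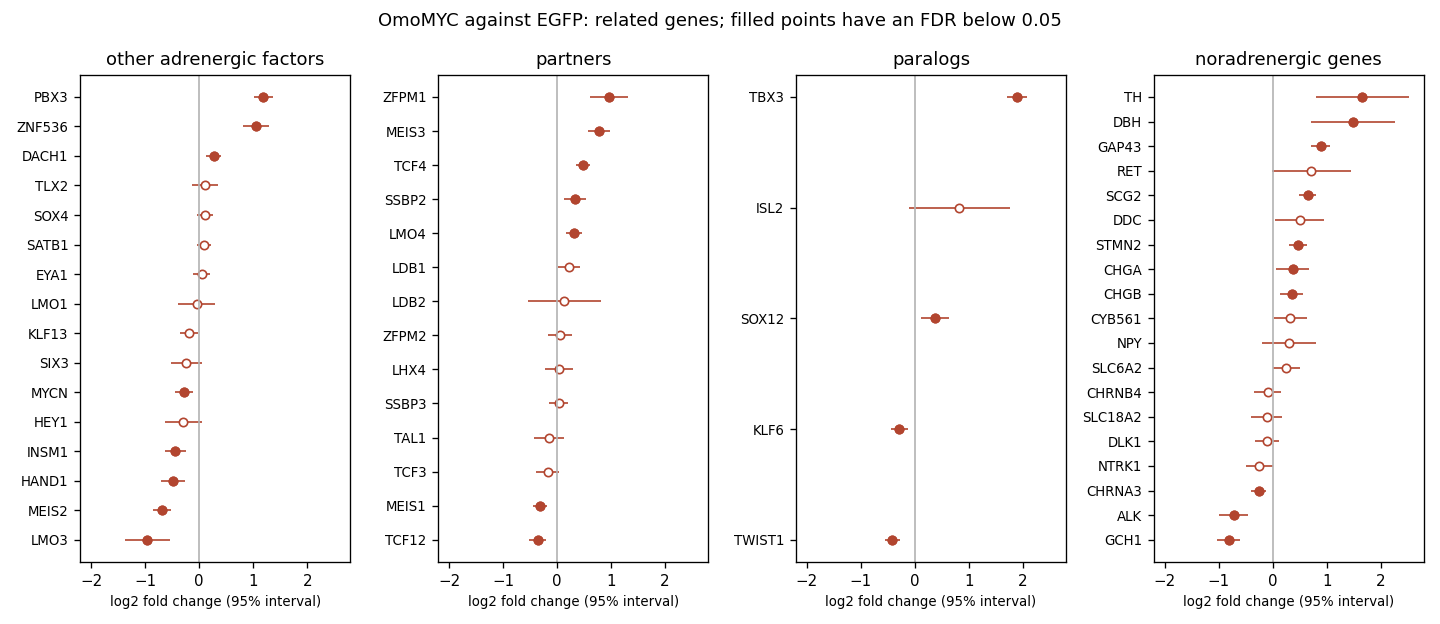
Log2 fold change (x axis) with 95% interval, OmoMYC against EGFP (3 libraries each), of genes in 4 groups related to the factors, ordered by value, with filled points for an FDR below 0.05. Filled points lie on both sides of 0 in every panel, with TBX3 at 1.89 the highest paralog and LMO3 at -0.96 the lowest of the other adrenergic factors.

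Factors of the opposite, mesenchymal state of neuroblastoma also went both ways, with 14 of 22 tested, 4 higher, 5 lower and a median of -0.29 beside 0.01 for all genes, which had 53% called. TBX18, a T-box factor, rose from 3.88 ± 1.03 to 262 ± 10.0 CPM (log2 fold change 6.07, adjusted p = 4.79e-10, edgeR), and JUN (1.40), ID1 (0.54) and AEBP1 (0.51) rose. YAP1, a Hippo pathway coactivator, fell with a log2 fold change of -1.10, and NR3C1 (-0.58), SOX9 (-0.53), RUNX2 (-0.43) and FOSL2 (-0.34) fell. RUNX2 lost its call with DESeq2 and when EGFP 1, OmoMYC 1 or OmoMYC 3 was left out. SOX9 lost it when EGFP 2, EGFP 3 or OmoMYC 1 was left out, and FOSL2 when EGFP 2, OmoMYC 1 or OmoMYC 3 was.

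In parental cells, none of the 8 factors was called with dTAG47 by edgeR or by DESeq2, and 0.159% of 14470 genes were called by edgeR (0.117% higher and 0.0415% lower). TBX2 and SOX11 had an unadjusted p below 0.05, as had 7.28% of all tested genes. TBX2 was at 58.4, 58.6, 65.8 and 64.1 CPM in DMSO replicates 1 to 4 and at 70.6, 63.7, 71.1 and 76.2 CPM in dTAG47 replicates 1 to 4. The groups overlapped through dTAG47 replicate 2, and the log2 fold change was 0.19 (95% interval 0.07 to 0.31, adjusted p = 0.579, edgeR). DMSO libraries 1 and 2 stand apart from 3 and 4, the chi-square over its degrees of freedom being 2.64 and 3.15 within these pairs and 8.7 to 11.3 between them. The dTAG47 libraries follow this division only in part, since 3 and 4 are close (2.66) but library 1 is nearer to 3 (5.68) than to 2 (8.17), and library 2 is far from 3 (14.7) and 4 (22.4). The labels name no batch. With a factor for replicates 1 and 2 against 3 and 4 TBX2 was called (0.19, adjusted p = 0.0026), as it was in replicates 3 and 4 alone (0.18, adjusted p = 0.00134) but not in replicates 1 and 2 alone (0.21, adjusted p = 0.58). With that factor 794 genes of the experiment were called in place of 23, and TBX2 was the member among them. Replicates 3 and 4 alone gave 896 called of 14528 genes, and replicates 1 and 2 alone gave 7 of 14506. Both of these fits were added after seeing the data. Leaving out dTAG47 replicate 2 also gave a call of TBX2 (0.24, adjusted p = 0.0468, edgeR), with 84 genes called of 14511.

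SOX11 was at 924, 905, 885 and 844 CPM in DMSO libraries and at 818, 894, 829 and 802 CPM in dTAG47 libraries, with a log2 fold change of -0.09 (95% interval -0.18 to 0.00, adjusted p = 0.673, edgeR). ISL1 was at 40.9, 41.6, 41.3 and 40.6 CPM with DMSO and at 44.1, 41.8, 42.6 and 42.9 CPM with dTAG47. It was the member whose groups did not overlap, 1 of 8 beside 3.34% of all genes, but the log2 fold change was 0.06 (95% interval -0.03 to 0.15, adjusted p = 0.711, edgeR). GATA2 (0.08), PHOX2A (0.06), GATA3 (0.02), HAND2 (0.01) and KLF7 (0.01) had values whose intervals reached from -0.08 to 0.20 at most. GATA2 was at 91.5 to 105 CPM with DMSO and 95.4 to 109 with dTAG47, PHOX2A at 91.8 to 109 and 92.4 to 111, and GATA3 at 236 to 257 and 239 to 257. HAND2 was at 354 to 376 and 349 to 380 CPM and KLF7 at 142 to 151 and 147 to 153 CPM. The groups overlapped for all 5 of these genes, and the median log2 fold change of the 8 factors was 0.04, beside 0 for all genes. None of the 18 other adrenergic factors, 15 partners, 5 paralogs, 18 noradrenergic genes and 17 mesenchymal factors tested was called by edgeR, while 2 (MYCN and PBX3), 0, 0, 5 (DLK1, GAP43, GCH1, SCG2 and SLC18A2) and 1 (ID1) of them had an unadjusted p below 0.05, beside the 7.28% of all genes given above, and DESeq2 called 1 noradrenergic gene, SCG2.

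Members also followed the division of the DMSO libraries. PHOX2A, HAND2, GATA2, GATA3 and TBX2 were higher in both DMSO replicates 3 and 4 than in replicates 1 and 2, as were 28.8% of all tested genes, and KLF7 and SOX11 were lower in both, as were 31.6%. In dTAG47 cells, replicate 2 was the lowest library for 6 members, as for 33.7% of all tested genes, and the highest for KLF7 and SOX11, as for 34.1%.

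Levels were compared between genes as CPM per kb of annotated exon. With EGFP the order was GATA3 (89.0), SOX11 (85.5), HAND2 (71.6), PHOX2A (61.0), GATA2 (27.6), TBX2 (24.2), ISL1 (10.6) and KLF7 (9.61 CPM per kb). The libraries overlapped between GATA3 and SOX11, between HAND2 and PHOX2A, and between GATA2 and TBX2, so these neighbours did not differ beyond their spread. With OmoMYC, TBX2 at 48.2 CPM per kb was above GATA2 at 36.4, with no overlap of libraries, and the rest of the order was as with EGFP. In DMSO cells the order was HAND2 (102), SOX11 (98.8), GATA3 (72.0), PHOX2A (55.6), GATA2 (19.9), KLF7 (15.4), ISL1 (14.6) and TBX2 (10.1 CPM per kb), with overlap between HAND2 and SOX11 and between KLF7 and ISL1. The order with dTAG47 was that of DMSO. TBX2, lowest of the 8 in parental cells, was above ISL1 and KLF7 in EGFP cells, but levels of separately counted experiments are only set side by side. Divided by the longest transcript in place of all exons, the mean of HAND2 was above that of SOX11 in engineered cells too, at 92.8 and 85.5 CPM per kb with EGFP. The libraries of HAND2 and SOX11 still overlapped with EGFP (lowest HAND2 library 86.3, highest SOX11 library 88.8) and with OmoMYC, so this order was within their spread.

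**Figure D5:**
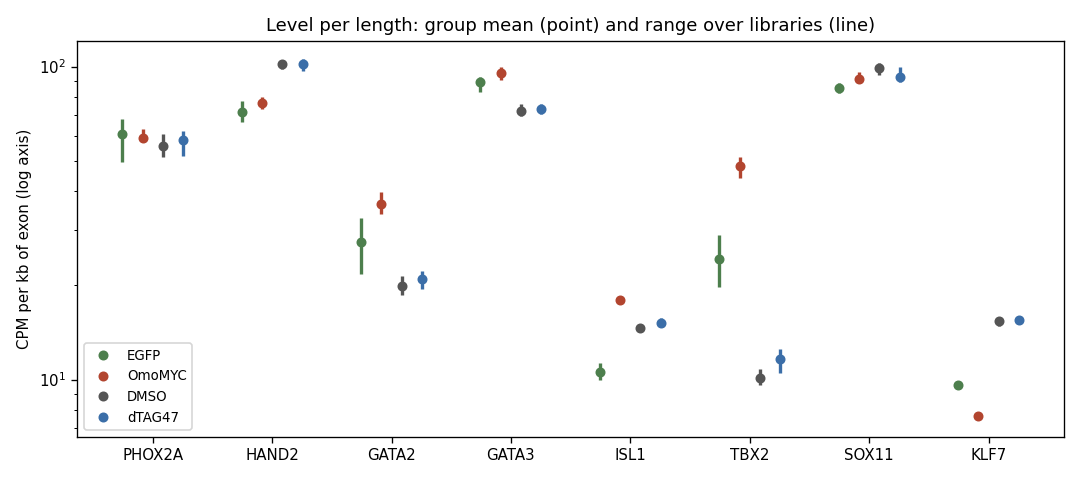
Level of each factor as CPM per kb of annotated exon (log axis), with a point for the group mean and a line for the range over libraries (3 for EGFP and OmoMYC, 4 for DMSO and dTAG47). GATA3, SOX11, HAND2 and PHOX2A lie above the other 4 factors in every group, and TBX2 reaches 48.2 with OmoMYC.

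Genes with the pattern most similar to each member were found by the root mean square difference of log2 CPM over the 14 libraries, centred within each experiment, among 11968 genes. HAND2 was nearest to NPR2 (0.0202) and DVL2 (0.0208), and GATA3 to NPR2 (0.0282) and HAND2 itself (0.0323), the only member among the nearest genes of another. PHOX2A was nearest to SHD (0.0325) and MED25 (0.034), GATA2 to C19orf25 (0.0343), and ISL1 to NMNAT2 (0.0374) and TSPYL4 (0.0461). TBX2 was nearest to CELF3 (0.0505) and SHANK3 (0.0538), SOX11 to ACVR2B (0.0393) and CDK13 (0.0454), and KLF7 to CLSPN (0.0249) and RBBP4 (0.0292). The members' own variation on this scale ran from 0.0628 for GATA3 to 0.361 for TBX2. Because the genes share libraries and scaling, these are descriptions.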

How the data were processed

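The data are RNA-seq libraries of CHP-134 cells, 14 in all: EGFP and OmoMYC (3 each), and DMSO and dTAG47 in parental cells (4 each). The deposited values are raw counts per gene, which the authors made by trimming reads with Cutadapt, aligning them to hg19 with STAR and counting with FeatureCounts after ribosomal RNA depletion. The annotation, strand setting and treatment of multiply mapped reads are not given in the sources used here, and such choices could move reads between overlapping genes. Groups were taken from the sample titles.

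Each experiment was fitted alone in R 4.3.3 with edgeR 4.0.16: filterByExpr, TMM scaling, the robust quasi-likelihood test and Benjamini-Hochberg adjustment over all tested genes, with an FDR threshold of 0.05. The threshold is that of the study's methods, which name DESeq2. Alternatives were DESeq2 1.42.0, limma-voom (limma 3.58.1), scaling by RLE factors, by the upper quartile or by library size alone, testing without a filter or with a minimum of 10 counts throughout, a replicate block, each library left out, and, in parental cells, a factor for replicates 1 and 2 against 3 and 4. Fits of replicates 1 and 2 alone and of 3 and 4 alone were added after seeing the data. The fits were tested on simulated data. Library totals set the counting error, and p-values weigh the difference between groups against the spread between libraries of a group. For OmoMYC against EGFP, with 1 engineered line for each transgene, that spread does not include differences between lines.

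The members and lists were chosen with earlier results of these data known. Named were all members, the genes of related lists that were called or among the 3 highest by mean CPM, and the 2 nearest genes of each member. Some genes of the lists and 1 nearest gene are counted or ranked but not reported here. List counts carry no set test.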

Additional observations from a re-analysis of the deposited data

How the results depend on the processing

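For OmoMYC against EGFP, TBX2, ISL1, GATA2 and KLF7 were called by every test, scaling and filter tried, and 3 to 5 members were called with each library left out. PHOX2A ranged from -0.19 to 0.005 over the libraries left out. The cause was not tested.

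For dTAG47 against DMSO, 1 member (TBX2) was called in place of 0 with the replicate block, with a factor for replicates 1 and 2 against 3 and 4, and in replicates 3 and 4 alone, and 0 to 1 with each library left out (1 without dTAG47 replicate 2). With library size only the log2 fold change was -0.0025 for HAND2 and -0.0014 for KLF7. With each library left out HAND2 ranged from -0.007 to 0.03 and KLF7 from -0.01 to 0.02. The cause was not tested.

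Replicates share numbers across groups. Correlations of same-numbered libraries' deviations were 0.08, -0.07 and 0.29 for EGFP and OmoMYC and 0.01, 0.11, 0.1 and 0.16 for DMSO and dTAG47, and not every library correlated best with its own number, so the numbers were not taken as a pairing. With the replicate block, 10 other adrenergic factors and 14 noradrenergic genes were called with OmoMYC in place of 9 and 10, while calls over all genes rose from 7311 to 8100. In parental cells the block gave TBX2 a log2 fold change of 0.19 (adjusted p = 0.00408, edgeR) and raised the calls over all genes from 17 higher and 6 lower to 306 and 362.

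With the longest transcript as the length, the DMSO level per kb was 132 in place of 102 for HAND2 and 25.7 in place of 19.9 for GATA2. With 3 libraries a group, changes the size of those of HAND2, GATA3 and SOX11 were not separated from the replicate spread.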
